A study of Caenorhabditis elegans with 36 samples.

Results

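The hairpins cel-mir-793, cel-mir-794, cel-mir-795 and cel-mir-1821, written below without the species prefix, are the less abundant, sequence-divergent members of the let-7 family of microRNAs in the nematode Caenorhabditis elegans. They were chosen by name, as family members of lower abundance, and make up 4 of the 250 hairpins in the count table, and 4 of 4 passed the filter on low counts that left 193 hairpins for testing. Whole hermaphrodites of N2, the wild-type laboratory strain, gave the RNA for small RNA sequencing. Worms received rotenone (100 nM), an inhibitor of mitochondrial complex I, or its vehicle DMSO (0.1 %), and were collected at 6 hours and at 1, 2, 3 and 5 days. A second vehicle group received H2O (0.1 %) and was collected at 1 and 5 days. Each of these 12 groups held 3 libraries, so 36 in all, and no group carried a mutation or transgene per the labels. Times are counted from treatment in the series title, whereas the labels of single samples give the same values as an age.

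MicroRNAs guide Argonaute proteins to messenger RNAs that pair with the seed, a short stretch near the 5′ end of the mature strand, and members of a family share that seed. In C. elegans let-7 and its close sisters mir-48, mir-84 and mir-241 are heterochronic genes: they switch off the factors of earlier larval stages so that the epidermis moves on to later fates. mir-793, mir-794, mir-795 and mir-1821 are grouped with them by the seed but differ in the rest of the mature strand, and their own roles are less well described. Seeds and mature sequences were not analysed here.

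Levels are given in CPM, counts normalised to library size after scaling for composition, and each covers a whole hairpin with its arms not separated. Total counts ran from 4361246 to 14960062 per library. A group occupied 1 of 4 sequencing lanes. At each time rotenone, DMSO and, where collected, H2O were on different lanes, so treatment and lane cannot be told apart within a time. Neighbouring times of a treatment also differed in lane, as did H2O at 1 and 5 days. Time and lane therefore cannot be told apart in those steps either. No label ties the 3 libraries of a group to separate cultures, and the p-values therefore reflect the spread among libraries alone, which may be technical. In whole worms, fewer cells of a type and less RNA per cell cannot be told apart. The markers of muscle (mir-1), intestine (mir-60), glia (mir-228) and neurons (4 of 4) and the mir-35 family of oocytes and embryos (8 of 8) were detected in all 12 groups.

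Among the 4 hairpins mir-793 was the most abundant and mir-1821 the least. Over all libraries mir-793 averaged 717 CPM, the rank of 59 among the 193 tested hairpins. mir-794 averaged 212 CPM (rank 76), mir-795 164 CPM (rank 83) and mir-1821 15.6 CPM (rank 127). In the mean over all libraries the heterochronic sisters stood higher, at 16412 CPM for mir-48, 4304 for mir-84, 4181 for let-7 and 815 for mir-241. By group, mir-793 lay below mir-241 at 6 hours, at 1 day and in DMSO at 5 days. In the remaining groups mir-793 was the higher of the 2, as in DMSO at 2 days (764 against 455 CPM) and rotenone at 3 days (547 against 543 CPM). These levels are not divided by length, since a read spans a mature microRNA, and the efficiency with which each sequence enters a library was not measured. Together the 4 hairpins made up between 3.32% ± 0.10 (SD, n = 3) of all counts of these 8 family members, in DMSO at 5 days, and 5.99% ± 1.15, in DMSO at 2 days. mir-793 supplied 59.95% to 72.8% of the counts of the 4, both ends again in DMSO at 5 and at 2 days.

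**Figure D1:**
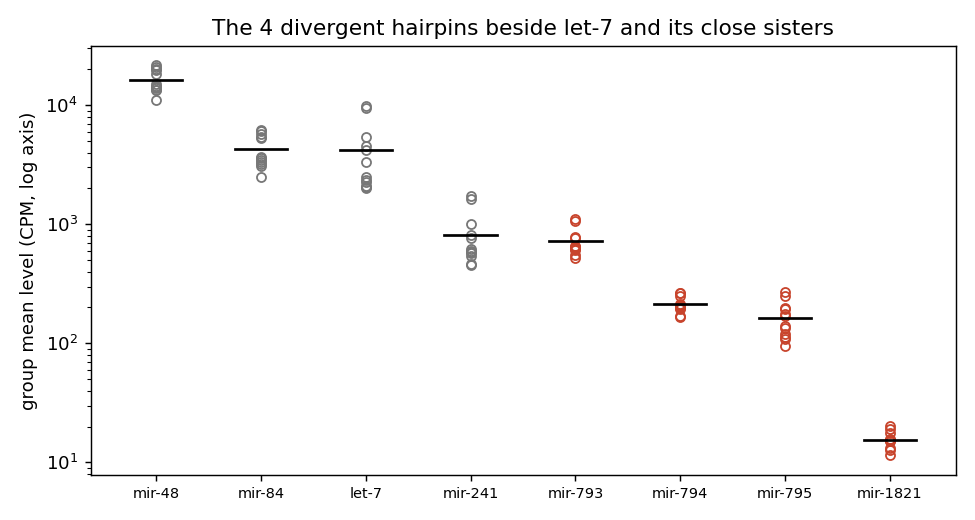
Level in CPM on a log axis (vertical) of the 4 divergent hairpins (red) and of let-7, mir-48, mir-84 and mir-241 (grey); each point is the mean of 3 libraries of 1 of the 12 groups and each bar the mean over all 36 libraries. The bars descend from 717 CPM for mir-793 to 15.6 CPM for mir-1821, and mir-793 overlaps mir-241, which averaged 815 CPM.

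The counts behind each hairpin and the spread within groups both bear on precision. Per library mir-793 had 2431 to 16917 counts, mir-794 761 to 4395, mir-795 739 to 4071 and mir-1821 51 to 303. Within groups the coefficient of variation was 7.98% for mir-793, 5.52% for mir-794 and 6.13% for mir-795, where counting error alone gives 1.39%, 2.48% and 2.88%. For mir-1821 it was 18.2% against 9.20% from counting, so the spread of this hairpin was the widest of the 4, on counts as well as beyond them. The counting values cover counting error only, since reads without molecular identifiers are not independent molecules.

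In the WBcel235 annotation the 4 hairpins lie on 3 chromosomes, and none overlaps another annotated gene. mir-795 and mir-794 are neighbours on chromosome I, in that order on the forward strand, with no annotated gene between them. mir-793 lies on the forward strand of the X chromosome between the protein-coding genes mct-3 and M03B6.4. mir-1821 lies on the reverse strand of chromosome V beside mir-792, a hairpin on the same strand. Positions are left out because the build behind the counts was not stated.

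All 4 hairpins were highest at 6 hours and fell over the first day in DMSO, a step that also changed lane, as did each later step between neighbouring times. mir-793 stood at 1094, 1066 and 1174 CPM in the 3 DMSO libraries of 6 hours and at 614, 625 and 641 CPM in those of 1 day, with no overlap. It fell to 0.564 of its level (log2 -0.83 ± 0.086, SE; adjusted p = 7.62e-11, edgeR quasi-likelihood test). mir-795 went from 260.0, 265 and 285 CPM to 135, 139 and 128, again with no overlap, and fell to 0.496 (log2 -1.01 ± 0.073, adjusted p = 4.58e-15). This was the largest relative fall of the 4 over this step. mir-794 fell to 0.756 (log2 -0.40 ± 0.068, adjusted p = 2.68e-06) and mir-1821 to 0.639 (log2 -0.65 ± 0.18, adjusted p = 0.00162), both without overlap. Of all hairpins tested 65.3% passed over this step, 34.7% fell and 38.3% were lower without overlap, and the median change over all hairpins was -0.076, against a median of -0.74 for the 4. let-7, mir-48, mir-84 and mir-241 fell as well (4 of 4, median -0.97), as did lin-4, which lowers lin-14 in early larvae, and its sister mir-237. Over the same step in DMSO the summed level of the mir-35 family went from 23467 to 119082 CPM, and its part in these changes was not tested.

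After the first day the hairpins parted. From 1 to 2 days in DMSO 44% of all tested hairpins passed, 18.7% higher and 25.4% lower, with 21.2% higher and 25.9% lower without overlap. mir-795 went on falling to 92.6, 87.8 and 103.8 CPM in the DMSO libraries of 2 days (log2 -0.50 ± 0.075 against 1 day, adjusted p = 6.63e-07) and then rose. At 3 days its DMSO libraries held 104.3, 116 and 107 CPM (log2 0.20 ± 0.076, adjusted p = 0.0261), a call that ended with size factors or total counts, without the filter or without any of 4 libraries. Between 2 and 3 days 47.7% of all hairpins passed, 24.4% higher and 23.3% lower. By 5 days they held 200.4, 207 and 178 CPM, all above those of 3 days (log2 0.84 ± 0.077, adjusted p = 7.93e-12), in a step where 45.6% of all hairpins passed, 22.8% higher, and 26.9% were higher without overlap. mir-795 thus passed through its lowest level in DMSO at 2 days, at 94.7 ± 8.21 CPM (SD, n = 3). From 3 to 5 days in DMSO the markers of muscle (log2 -0.55), intestine (-0.25) and glia (-0.27) fell, as did 3 of 4 neuronal markers (median -0.65) and 5 of 8 of the mir-35 family. The neuronal sum went from 182 to 185 CPM down to 103.7 to 114 CPM and that of the mir-35 family from 124207 to 126437 down to 106730 to 111208 CPM, and their part in the rise of mir-795 was not tested. In rotenone the group means of mir-795 were 249 ± 11.8, 171 ± 8.03, 113 ± 8.64, 119 ± 4.45 and 177 ± 9.47 CPM (SD, n = 3) in order of time. The first step (log2 -0.54 ± 0.073, adjusted p = 4.92e-08), the fall to 2 days (log2 -0.60 ± 0.075 against 1 day, adjusted p = 2.58e-08) and the rise from 3 to 5 days (log2 0.57 ± 0.077, adjusted p = 7.38e-08) passed, each without overlap. Among all hairpins in rotenone 63.7% passed in the first step, 31.1% lower, 35.2% from 1 to 2 days, 22.3% lower, and 49.2% from 3 to 5 days, 21.8% higher. Lower without overlap were 34.2% in the first step and 28% from 1 to 2 days, and 26.9% were higher without overlap in the last.

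mir-794, the neighbour of mir-795, moved less. In DMSO its group means were 265 ± 21.6, 201 ± 8.52, 169 ± 7.83, 167 ± 13.6 and 202 ± 16.03 CPM (SD, n = 3) from 6 hours to 5 days. It fell from 1 to 2 days (log2 -0.25 ± 0.069, adjusted p = 0.00321) and rose from 3 to 5 days (log2 0.27 ± 0.071, adjusted p = 0.00153). With total counts in place of the scaling used, the latter stood at 0.067 with an adjusted p of 0.431, and without the filter the former at -0.19 with an adjusted p of 0.0543. Rotenone worms had means of 265 ± 16.7, 249 ± 6.90, 209.8 ± 6.11, 196 ± 13.9 and 213 ± 9.49 CPM (SD, n = 3). The fall from 1 to 2 days passed (log2 -0.25 ± 0.069, adjusted p = 0.00527), while the first day gave -0.090 ± 0.068 with an adjusted p of 0.265. That first step depended on scaling: with total counts it stood at -0.27 with an adjusted p of 0.000273, and without DMSO replicate 2 of 1 day at -0.21 with an adjusted p of 0.0106.

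The most abundant of the 4, mir-793, was also followed in both treatments. In DMSO its libraries of 2 days held 643, 714 and 936 CPM, uneven among themselves but all above those of 1 day (log2 0.29 ± 0.085, adjusted p = 0.00579). Without the library at 936 CPM, replicate 3, the difference was 0.12 with an adjusted p of 0.257. At 3 days the DMSO libraries held 516, 500.3 and 558 CPM, all below those of 2 days, as were 25.9% of all hairpins, while 26.4% lay above (log2 -0.54 ± 0.086, adjusted p = 1.69e-06). At 5 days they held 624, 651 and 578 CPM (log2 0.23 ± 0.087 against 3 days, adjusted p = 0.0247), a rise whose call ended without the filter, with total counts or without any of 4 libraries. In rotenone mir-793 fell at each step to 3 days without overlap, from 1069.7 ± 39.6 CPM (SD, n = 3) to 781 ± 42.4, 643 ± 37.5 and 547 ± 25.6. Its last step, to 610.0 ± 5.22 CPM at 5 days, gave 0.16 ± 0.087 on the log2 scale with an adjusted p of 0.134, and passed with size factors (0.20, adjusted p = 0.0388), with DESeq2 and with only those groups fitted. The fall from 2 to 3 days (log2 -0.23 ± 0.086, adjusted p = 0.0324) no longer passed when any of 5 libraries was left out, and that from 1 to 2 days (log2 -0.28 ± 0.086, adjusted p = 0.0107) without rotenone replicate 3 of 1 day or replicate 2 of 2 days. From 2 to 3 days in rotenone 36.8% of all hairpins passed, 16.6% lower, and 19.7% were lower without overlap.

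Time as a whole passed in both treatments for mir-793, mir-794 and mir-795. The F-test over the 5 times gave adjusted p-values in DMSO of 7.47e-14 for mir-793, 4.30e-11 for mir-794, 4.13e-21 for mir-795 and 0.0142 for mir-1821. For rotenone they were 1.22e-12, 6.90e-07 and 5.21e-17 for the first 3 hairpins and 0.0945 for mir-1821. Among all tested hairpins 89.6% passed in DMSO and 86.5% in rotenone, so passing was the common case. mir-1821 passed in rotenone with total counts (adjusted p = 0.00175), without the filter (0.00319) and with only those groups fitted (0.00393). It stood at 20.3 ± 2.15 CPM (SD, n = 3) in DMSO at 6 hours and at 12.8 ± 2.81 at 1 day. Its 2-day DMSO libraries held 13.9, 15.8 and 23.5 CPM, and the difference from 1 day (log2 0.45 ± 0.17, adjusted p = 0.0333) was 0.20 with an adjusted p of 0.419 without replicate 3 of DMSO at 2 days and 0.30 with an adjusted p of 0.212 without replicate 2 of 1 day.

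**Figure D2:**
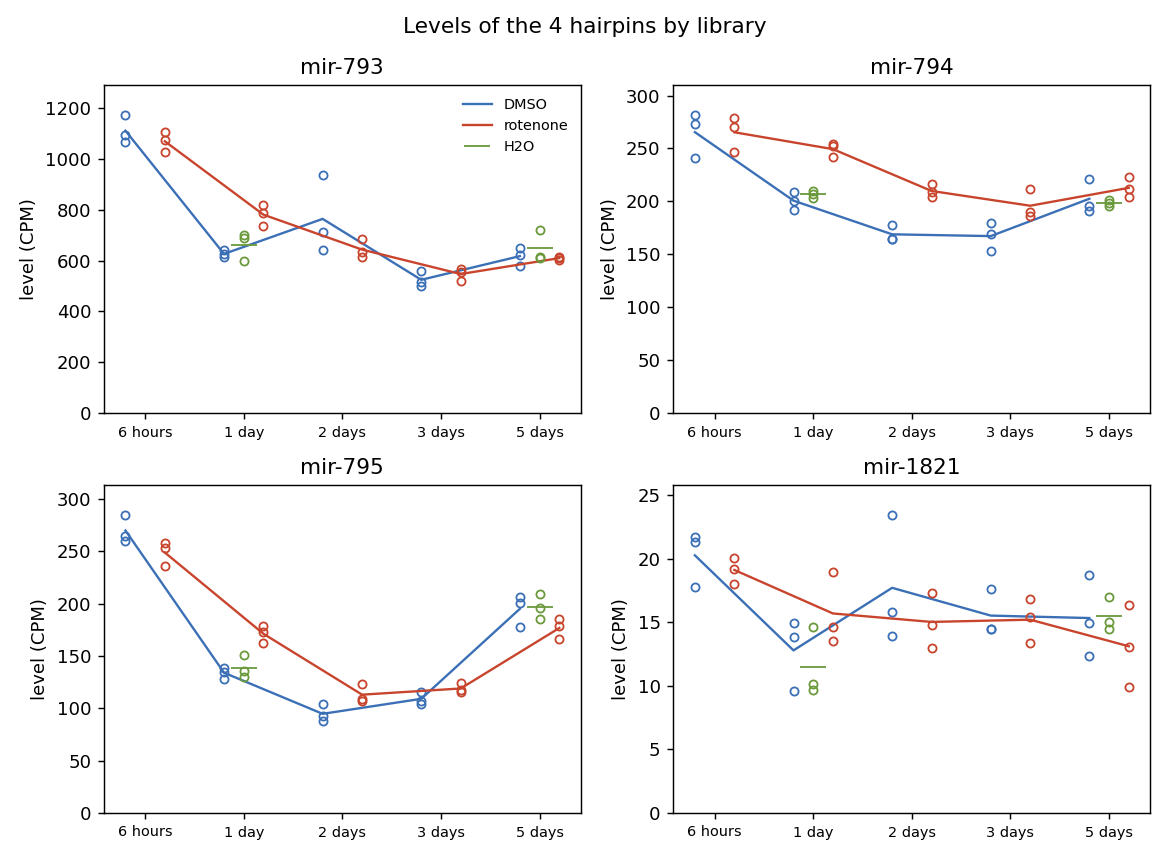
Level in CPM (vertical, from 0) of each hairpin at each time (horizontal) in DMSO (blue), rotenone (red) and H2O (green); each circle is 1 library, the lines join means of 3 libraries and the green bars are H2O means. mir-795 drops to a mean of 94.7 CPM in DMSO at 2 days and returns to 195 CPM at 5 days, while mir-793 shows 1 DMSO library of 2 days at 936 CPM above the other two.

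Ordered by group mean, mir-793 fell into 3 tiers that did not overlap at their borders. Both 6-hour groups stood on top, 8 groups followed whose neighbours overlapped, from rotenone at 1 day to rotenone at 5 days, and the 3-day groups came last, at 547 ± 25.6 CPM in rotenone and 525 ± 29.9 CPM (SD, n = 3) in DMSO. For mir-794 the top tier also held rotenone at 1 day, and the lowest held DMSO at 2 and 3 days. mir-795 had 5 such borders: DMSO at 6 hours (270.1 ± 13.4 CPM) stood above rotenone at 6 hours, then came the 5-day groups with rotenone at 1 day, the 1-day vehicles, rotenone at 3 and 2 days with DMSO at 3 days, and DMSO at 2 days. Neighbours in the order of mir-1821 overlapped throughout, from 20.3 CPM in DMSO at 6 hours to 11.4 ± 2.72 CPM (SD, n = 3) in H2O at 1 day. From the highest to the lowest group mean mir-795 spanned 2.85-fold, mir-793 2.12-fold, mir-1821 1.77-fold and mir-794 1.59-fold.

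Times that shared a lane could be compared without a change of lane. On the lane of DMSO at 2 and 5 days mir-795 rose 2.06-fold (log2 1.04 ± 0.077, adjusted p = 6.54e-15), from 94.7 ± 8.21 to 195 ± 15.1 CPM (SD, n = 3). mir-794 gave 1.20-fold (log2 0.26 ± 0.071, adjusted p = 0.00144), but with total counts the difference turned to -0.014 (adjusted p = 0.850), a scaling that moved all hairpins by -0.27. Without the filter it was 0.18 (adjusted p = 0.0574) and with only those groups fitted 0.22 (adjusted p = 0.0584). mir-793 fell (log2 -0.31 ± 0.086, adjusted p = 0.00194) with overlapping groups, and without DMSO replicate 3 of 2 days stood at -0.14 with an adjusted p of 0.117. Of all hairpins 67.9% passed in this comparison, 33.2% higher and 34.7% lower, and 31.6% were higher without overlap. Over these days the muscle marker (log2 -0.92), the glial marker (-0.59), 3 of 4 neuronal markers (median -1.12) and 6 of 8 of the mir-35 family fell, and their part was not tested. On the lane of rotenone at 1 and 3 days mir-795 fell to 0.695 (log2 -0.53 ± 0.076, adjusted p = 2.75e-07), mir-793 to 0.701 (log2 -0.51 ± 0.086, adjusted p = 4.16e-06) and mir-794 to 0.786 (log2 -0.35 ± 0.070, adjusted p = 7.00e-05), each without overlap. There 42.5% of all hairpins passed, 21.2% were lower and 26.4% were lower without overlap. There the muscle marker fell (log2 -0.28), 1 of 4 neuronal markers rose, and of the mir-35 family 6 of 8 rose and 2 fell. mir-1821 did not pass in either comparison, but with total counts its difference from 2 to 5 days in DMSO was -0.50 with an adjusted p of 0.0226, against -0.23 ± 0.20 (adjusted p = 0.326).

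With H2O, from 1 to 5 days, mir-795 rose 1.42-fold (log2 0.51 ± 0.075, adjusted p = 2.41e-07), from 130, 135 and 150.5 CPM to 196, 209.6 and 185 CPM. The H2O groups of these days were on different lanes, so time and lane cannot be told apart here. Hairpins that passed made up 57.5% of those tested, those that were higher 27.5%, and without overlap 29% were higher and 33.2% lower. mir-793 (log2 -0.031 ± 0.086), mir-794 (-0.057 ± 0.070) and mir-1821 (0.47 ± 0.21, adjusted p = 0.0531) did not pass. With total counts, which moved all hairpins of this comparison by -0.21, mir-793 stood at -0.24 (adjusted p = 0.00459) and mir-794 at -0.27 (adjusted p = 0.000448).

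Between rotenone and DMSO mir-793, mir-794 and mir-795 passed at 1 or more times, and mir-1821 at none. At 1 day mir-793, mir-794 and mir-795 were higher with rotenone, 3 of the 4 hairpins against 16.6% of all tested and 10.4% higher. At 2 days mir-794 and mir-795 were higher and mir-793 was lower, where 42.5% of all hairpins passed, 21.2% in each direction, so passing was common at that time. At 3 days mir-794 was higher (1 of 4, against 12.4% of all, 8.29% higher). Groups without overlap, higher with rotenone, were seen in 3 of 4 hairpins at 1 day against 17.6% of all, in 2 of 4 at 2 days against 25.4% and in 1 of 4 at 3 days against 14.5%. None of the 4 passed at 6 hours (11.9% of all) or at 5 days (1.04%). The median of the 4 was 0.32 at 1 day and 0.015 at 2 days on the log2 scale, beside 0.011 and 0.021 over all hairpins.

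**Figure D3:**
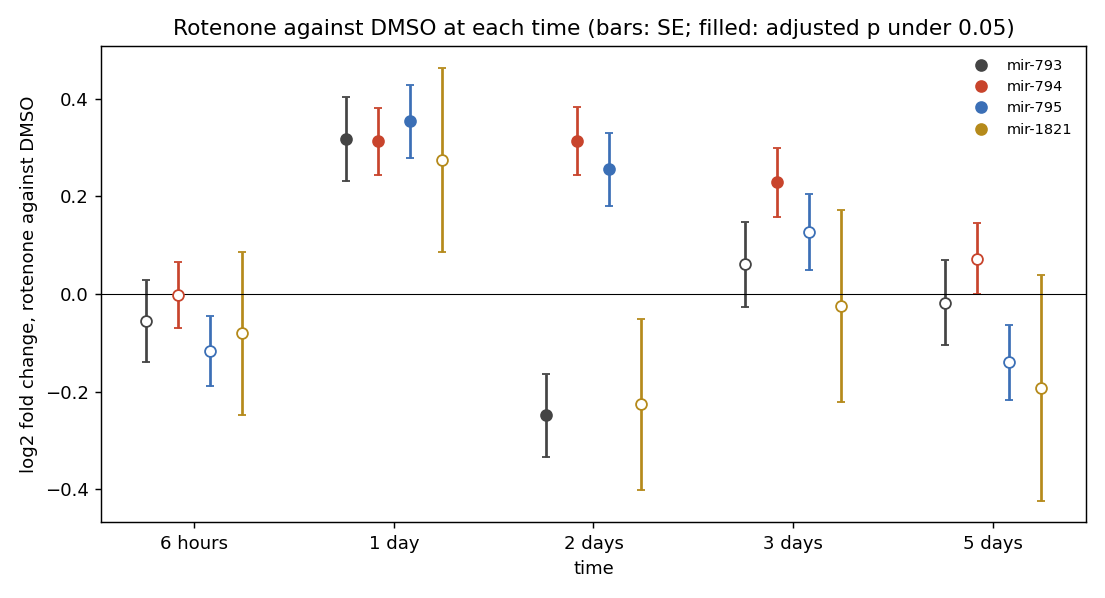
Log2 fold change of rotenone against DMSO (vertical) at each time (horizontal) for the 4 hairpins, with standard errors from a model of all 36 libraries; filled points passed an adjusted p of 0.05. At 1 day the 3 filled points lie between 0.31 and 0.35, and at 2 days mir-793 lies at -0.25 while mir-794 and mir-795 lie at 0.31 and 0.26.

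mir-794 passed at 3 of the 5 times, more than any other of the 4. At 1 day it held 252, 254 and 241 CPM in rotenone against 201, 192 and 209 CPM in DMSO. At 2 days the rotenone libraries held 217, 209 and 205 CPM and the DMSO libraries 164.2, 164.5 and 178 CPM. In both cases every rotenone library lay above every DMSO library, by 1.24-fold on average (log2 0.31 ± 0.069 at each, adjusted p = 0.00136 and 0.000406). At 3 days rotenone gave 212, 189.7 and 186 CPM and DMSO 153, 169 and 179.7 CPM, again without overlap (1.17-fold, log2 0.23 ± 0.070, adjusted p = 0.0252). At 3 days 4 of 8 of the mir-35 family were higher too (median 0.27), with sums of 137129 to 167381 CPM in rotenone and 124207 to 126437 CPM in DMSO, and their part was not tested. At 1 day none of the 8 passed, nor did the muscle, intestinal and glial markers, and 1 of 4 neuronal markers was lower. The 3-day call of mir-794 ended without DMSO replicate 1 (0.17, adjusted p = 0.188), rotenone replicate 1 (0.17, adjusted p = 0.179) or rotenone replicate 2 (0.25, adjusted p = 0.0543) of 3 days, with total counts (0.14), without the filter (0.21) and with only those groups fitted (0.20). mir-794 did not pass at 6 hours (log2 -0.0011 ± 0.068, adjusted p = 0.987) or at 5 days (0.073 ± 0.072, adjusted p = 0.779). Averaged over the 5 times mir-794 was 1.14-fold higher with rotenone (log2 0.19 ± 0.031, adjusted p = 2.84e-05), the rank of 5 among 193 hairpins by the F statistic, in a comparison where 22.3% passed and 8.29% were higher. It was higher in mean at 4 of 5 times. In the same average 3 of 4 of let-7, mir-48, mir-84 and mir-241 were higher too (median 0.13), beside 2 of the 4 divergent hairpins (median 0.054).

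Treatment and lane were not balanced in that average, and each treatment was spread over all 4 lanes. In an additive model of treatment, time and lane mir-794 stood at 0.16 (adjusted p = 0.00364). That model takes the treatment difference to be the same at all 5 times. An exact two-sided permutation of the treatment labels within times gave a p of 0.000207 (adjusted p = 0.00799 over all hairpins). It moves lane along with treatment, so it cannot tell the 2 apart. Across the alternatives the mean difference lay between 0.16 and 0.21, and it passed in each, as it did when each library was left out in turn (0.17 to 0.20). The F-test of whether the difference changed over the 5 times gave 0.0164 for mir-794. It gave 0.263 without DMSO replicate 2 of 1 day, 0.0514 without DMSO replicate 3 of 6 hours, 0.299 with total counts and 0.176 without the filter. Leaving out DMSO replicate 2 of 1 day also moved comparisons that do not hold that library. For rotenone at 1 day against 6 hours mir-794 went from -0.090 to -0.21 and mir-1821 from -0.29 to -0.41.

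mir-795 differed most at 1 day. Its rotenone libraries held 163, 173 and 178 CPM and its DMSO libraries 135, 139 and 128 CPM (1.28-fold, log2 0.35 ± 0.074, adjusted p = 0.00114), the rank of 5 among 193 by the F statistic. At 2 days 107, 109 and 123 CPM in rotenone stood above 92.6, 87.8 and 103.8 CPM in DMSO (1.19-fold, log2 0.26 ± 0.075, adjusted p = 0.00646), without overlap. The 2-day call ended without DMSO replicate 2 (0.20, adjusted p = 0.0548) or rotenone replicate 3 (0.19, adjusted p = 0.0708), and with only those groups fitted (0.19, adjusted p = 0.105). At 6 hours the sign was the other way, with 236, 258 and 253 CPM in rotenone all below the 260.0, 265 and 285 CPM of DMSO, as in 16.6% of all hairpins, a difference that did not pass (log2 -0.12 ± 0.072, adjusted p = 0.358). At 5 days the groups overlapped (log2 -0.14 ± 0.077, adjusted p = 0.475). The difference changed over the 5 times (F-test, adjusted p = 0.00036, where 45.1% of all hairpins passed). Averaged over times it was 0.096 ± 0.034 on the log2 scale (adjusted p = 0.0356), and this call did not hold with lane as a term (0.063, adjusted p = 0.350), in the exact permutation within times (0.095, adjusted p = 0.233), with total counts (0.075, adjusted p = 0.0639) or without any of 14 libraries.

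mir-793 was higher with rotenone at 1 day and lower at 2 days. At 1 day its rotenone libraries held 735, 788 and 819.5 CPM and its DMSO libraries 614, 625 and 641 CPM, with no overlap (1.25-fold, log2 0.32 ± 0.085, adjusted p = 0.00614). At 2 days rotenone gave 632, 613 and 685 CPM and DMSO 643, 714 and 936 CPM, so the groups overlapped and replicate 3 of DMSO stood apart (log2 -0.25 ± 0.085, adjusted p = 0.0189). Without that library the 2-day difference was -0.076 with an adjusted p of 0.451, and the call also ended without rotenone replicate 1 (-0.24, adjusted p = 0.0526) or replicate 2 (-0.21, adjusted p = 0.0852) of 2 days and with only those groups fitted (-0.31, adjusted p = 0.0506). The change from 1 to 2 days was itself tested: the effect at 2 days minus that at 1 day was -0.57 ± 0.12 (adjusted p = 0.00149), the rank of 4 among 193 by the F statistic, where 13.5% passed and 10.4% were lower. Without the uneven library it was -0.39 (adjusted p = 0.0162). mir-794 gave 0.00086 ± 0.097 and mir-795 -0.098 ± 0.11 for the same difference. At 3 and 5 days mir-793 did not pass (log2 0.061 ± 0.086 and -0.018 ± 0.087), and over the 5 times its mean difference was 0.011 ± 0.038 (adjusted p = 0.855).

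The 3 DMSO libraries of 2 days also differed in markers of other tissues. The sum of the neuronal markers lsy-6, mir-124, mir-791 and mir-790 stood at 195, 225 and 269 CPM in DMSO, in the order of replicates 1, 2 and 3, and at 158, 158 and 159 CPM in rotenone. mir-228, the glial marker, stood at 27139, 33274 and 38809 CPM in DMSO and at 20378, 24508 and 26475 CPM in rotenone. The muscle marker mir-1 (624 to 692 CPM in DMSO) and the intestinal marker mir-60 (1696 to 2005 CPM) did not follow that order. The sum of the mir-35 family ran the other way, at 129094, 123596 and 119126 CPM in DMSO, with 124863 to 126404 CPM in rotenone. Both the neuronal sum and mir-228 were thus highest in the library in which mir-793 stood at 936 CPM and mir-1821 at 23.5 CPM. Between rotenone and DMSO at 2 days mir-228 was lower (log2 -0.48), as were 3 of 4 neuronal markers (median -0.45), where 21.2% of all hairpins were lower. The muscle and intestinal markers did not pass, nor did the mir-35 family (0 of 8). The neuronal mir-791 overlapped, at 15.1, 14.2 and 21.4 CPM in DMSO and 17.5, 15.6 and 13.1 CPM in rotenone. The part of these markers in the 2-day difference of mir-793 was not tested.

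mir-1821 did not pass at any time. At 1 day it held 13.5, 18.9 and 14.6 CPM in rotenone and 14.9, 9.60 and 13.8 CPM in DMSO, and the groups overlapped at each of the 5 times. Its log2 differences were 0.28 ± 0.19 at 1 day and -0.23 ± 0.17 at 2 days, with a mean over times of -0.049 ± 0.086 (adjusted p = 0.719). Its standard errors, 0.17 to 0.23, were more than 2 times those of mir-794.

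The heterochronic sisters share DMSO and rotenone libraries with the 4 hairpins, and their values stand here side by side. At 1 day 3 of 4 sisters were higher with rotenone, let-7 by 0.37 ± 0.056, mir-241 by 0.39 ± 0.090 and mir-84 by 0.21 ± 0.045 on the log2 scale, while mir-48 stood at 0.12 ± 0.054 (adjusted p = 0.132). At 2 days 4 of 4 were higher, between 0.26 ± 0.054 for mir-48 and 0.49 ± 0.056 for let-7. None passed at 3 days, when mir-794 did, with a call that ended under several settings given above. The median at 3 days was 0.096 for the sisters and 0.094 for the 4 hairpins. Of the 6 heterochronic microRNAs, which add lin-4 and mir-237, 3 were higher at 1 day and 5 at 2 days, with mir-237 at 0.26 ± 0.064 and lin-4 not passing at -0.12 ± 0.097. At 3 days mir-237 was lower (-0.22 ± 0.064, adjusted p = 0.0207).

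Against the H2O vehicle at 1 day mir-794 and mir-795 were again higher with rotenone, 2 of 4 where 11.9% of all hairpins passed and 8.29% were higher. Of let-7, mir-48, mir-84 and mir-241, 4 of 4 were higher too (median 0.21). The rotenone libraries are those compared with DMSO above. mir-794 held 207, 203 and 209.9 CPM in H2O, all below rotenone (log2 0.27 ± 0.069, adjusted p = 0.00484). mir-795 held 130, 135 and 150.5 CPM, likewise (log2 0.31 ± 0.074, adjusted p = 0.00443). For mir-793 the H2O libraries at 599, 688 and 702 CPM also lay below all rotenone libraries, as in 21.8% of all hairpins, but the difference missed the threshold (log2 0.24 ± 0.085, adjusted p = 0.0595). It passed without the filter (0.26, adjusted p = 0.0298), with only those groups fitted (0.20, adjusted p = 0.0194) and without DMSO replicate 1 or 3 of 2 days (adjusted p = 0.0329 and 0.0145). mir-1821 stood at 0.47 ± 0.19 (adjusted p = 0.116), and at 0.66 (adjusted p = 0.0319) without H2O replicate 3.

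At 5 days none of the 4 passed between rotenone and H2O, where 1.04% of all hairpins passed. mir-795 at 179, 166 and 184.99 CPM in rotenone lay below 196, 209.6 and 185.2 CPM in H2O without overlap, as in 14% of all hairpins, yet did not pass (log2 -0.15 ± 0.076, adjusted p = 0.406). mir-794 lay above H2O without overlap, as in 4.66% of all hairpins, and did not pass either (log2 0.10 ± 0.072, adjusted p = 0.525). Between DMSO and H2O none of the 4 passed at 1 day (adjusted p from 0.720 to 0.831) or at 5 days (0.926 to 0.935). No hairpin (0%) passed between these vehicles in edgeR's test at either time, while 14 at 1 day and 8 at 5 days had an unadjusted p under 0.05, and DESeq2 called 1 at 1 day.

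Ratios between hairpins in the same library do not depend on how libraries are scaled. Over the 5 times the ratio of mir-793 to mir-794 was lower with rotenone by -0.17 on the log2 scale (exact two-sided permutation within times, p = 0.00203, adjusted p = 0.0102 over 10 ratios). Its 3 rotenone libraries of 2 days held 2.92 to 3.35 counts of mir-793 per count of mir-794, below the 3.91 to 5.26 of DMSO, a log2 difference of -0.55. At the other 4 times the groups overlapped, with differences from -0.17 to 0.0029. The ratio of mir-794 to the sum of let-7, mir-48, mir-84 and mir-241 was higher with rotenone by 0.11 (exact permutation, p = 0.00135, adjusted p = 0.0102). This difference was 0.18 at 3 days and 0.15 at 5 days, both without overlap, and 0.0042 at 2 days. Its value at 2 days was thus the smallest of the 5. No exact test at a single time is given, since 3 against 3 libraries cannot go below 0.10. The other 8 ratios did not pass in the exact permutation test, among them mir-794 to mir-795 (0.091, p = 0.0202, adjusted p = 0.0506) and mir-794 to mir-1821 (0.24, p = 0.0177, adjusted p = 0.0506). The former passed in the exact permutation test when any of 6 libraries was left out (lowest adjusted p = 0.0161) and the latter when any of 7 was (lowest adjusted p = 0.0170).

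The neighbours mir-794 and mir-795 changed their balance with time. In DMSO there were 0.982 ± 0.053 counts of mir-794 per count of mir-795 at 6 hours, 1.50 ± 0.12 at 1 day, 1.79 ± 0.081 at 2 days, 1.53 ± 0.12 at 3 days and 1.04 ± 0.056 at 5 days (SD, n = 3). Rotenone worms followed with 1.07 ± 0.017, 1.46 ± 0.100, 1.87 ± 0.18, 1.65 ± 0.059 and 1.21 ± 0.11. In H2O the ratio was 1.50 ± 0.100 at 1 day and 1.01 ± 0.049 at 5 days. The ratio was lowest at 6 hours and highest at 2 days in both treatments, and rotenone lay above DMSO without overlap at 6 hours and at 5 days. These values are a description, and time was not tested on the ratio.

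**Figure D4:**
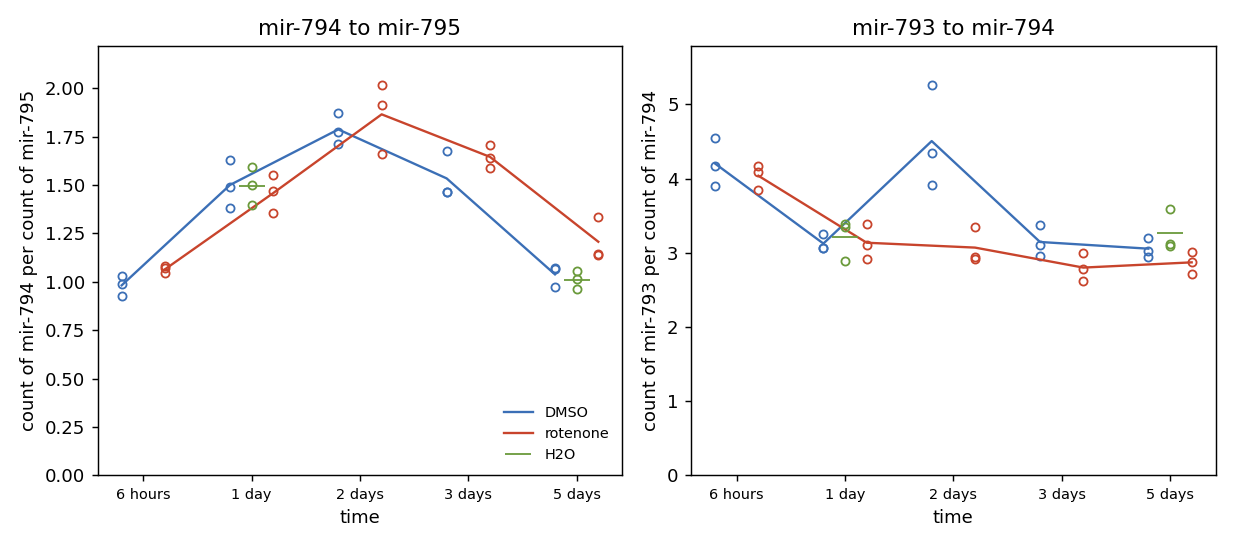
Counts of mir-794 per count of mir-795 (left, vertical) and of mir-793 per count of mir-794 (right, vertical) at each time (horizontal) in DMSO (blue), rotenone (red) and H2O (green); each circle is 1 library, and lines and green bars mark means of 3 libraries. On the left the DMSO mean rises from 0.982 at 6 hours to 1.79 at 2 days and returns to 1.04 at 5 days; on the right the DMSO libraries of 2 days lie between 3.91 and 5.26, above rotenone at 2.92 to 3.35.

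Across the 12 group means of log2 CPM, which share libraries, times and lanes, the pattern of each hairpin was compared with those of the other 192 by Pearson's correlation, as a description. Most like mir-793 were mir-90 (0.96), mir-79 (0.92) and mir-50 (0.92). For mir-794 they were mir-235 (0.93), the sister mir-241 (0.92) and mir-81 (0.92). mir-795 was most like mir-81 (0.95), mir-785 (0.94) and mir-784 (0.94), and mir-1821 like mir-1022 (0.85), mir-245 (0.78) and mir-87 (0.76). mir-794 and mir-795 correlated at 0.81, the rank of 12 among the partners of mir-794 and of 16 among those of mir-795. Within the family mir-793 and mir-794 were closer to let-7 (0.85 and 0.82) and mir-241 (0.87 and 0.92) than to mir-48 (0.22 and 0.47), and mir-795 was closer to mir-84 and mir-48 (0.85 for both) than to let-7 (0.55). mir-1821 and its neighbour mir-792 correlated at 0.67, with mir-792 at 5 to 48 counts per library.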

How the data were processed

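The authors deposited 1 table of raw read counts per microRNA hairpin for all 36 libraries, with 0 unmapped columns and 0 rows that name no microRNA. BWA 0.7.12-r1039, SAMtools 1.3.1-9, Trimmomatic 0.36 and bcl2fastq 1.8.4 are named, per the submitters' processing notes. How reads shared by near-identical hairpins were counted, the build and the annotation were not given in the sources used here, and such hairpins are uncertain to that extent. Groups and lanes came from the labels. Replicate numbers are used here as names of libraries only. Pairs of replicates differed beyond sampling noise (chi-square per degree of freedom 16.2 to 366).

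In R 4.3.3 with edgeR 4.0.16, hairpins were filtered by filterByExpr (minimum count 10), which kept 193 of the 241 with a count. TMM factors ran from 0.854 to 1.16. A single quasi-likelihood fit took all 36 libraries, each group with its own mean (24 residual and 12.6 prior degrees of freedom, common biological coefficient of variation 0.068). P-values were adjusted by Benjamini-Hochberg over all 193 hairpins within each comparison, with a threshold of 0.05. Log2 CPM used a prior count of 2. Ratios were tested by exact two-sided permutation of rotenone and DMSO within times (3200000 regroupings). Fits and permutations were tested on simulated data. Alternatives were DESeq2 1.42.0, its size factors, total counts, no filter, only the groups compared, the replicate number as a block, lane as a term, an exact permutation test, another prior count for ratios and each library left out in turn.

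The members and lists were chosen with earlier results of these data known. Named are the 4 hairpins, the let-7 sisters, lin-4 and mir-237, tissue markers and the 3 hairpins most like each member. Neighbouring genes came from the WBcel235 annotation.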

Additional observations from a re-analysis of the deposited data

Results flagged for a closer look

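The difference between rotenone and DMSO was not the same at all 5 times for 3 of the 4 hairpins, by the F-test of that change in edgeR's quasi-likelihood model, in which 45.1% of all hairpins passed. The adjusted p was 0.00393 for mir-793, 0.0164 for mir-794 and 0.00036 for mir-795, and 0.460 for mir-1821. In the same test 4 of 4 of let-7, mir-48, mir-84 and mir-241 passed, and with lin-4 and mir-237 added 5 of 6. For mir-793 the effect at 2 days minus that at 1 day was -0.57 on the log2 scale. The value of mir-794 ended as a call under settings named below, while those of mir-793 and mir-795 passed with every library left out in turn. With 3 libraries a group, no formal outlier test was applied.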

How the results depend on the processing

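Over the alternatives other than leaving out a library, 565 member results kept their side of the threshold, 23 became calls and 19 stopped being calls. A further 1, a call, changed sign and no longer passed. The 565 include results that changed sign without passing, such as mir-793 between rotenone and DMSO at 6 hours (-0.055 to 0.044). Among results that turned on scaling, total counts reversed mir-794 from 2 to 5 days in DMSO (-0.014). With total counts mir-794 also lost its call at 3 days (0.14) and its change of effect over times (adjusted p = 0.299), mir-795 its mean effect (0.075), while time in rotenone passed for mir-1821 (adjusted p = 0.00175), as did 2 to 5 days in DMSO (-0.50), and 1 to 5 days in H2O for mir-793 (-0.24) and mir-794 (-0.27). Relative to TMM, total counts moved all hairpins by -0.21 for DMSO at 5 against 3 days, -0.18 for rotenone at 1 day against 6 hours and -0.10 at 3 against 2 days, beside the shifts given above. Without the filter mir-794 lost 3 days (0.21), 2 to 5 days in DMSO (0.18) and its change of effect (adjusted p = 0.176), while mir-793 gained rotenone against H2O at 1 day (0.26) and mir-1821 time in rotenone (adjusted p = 0.00319). With only the groups compared in the fit, mir-793 lost 2 days (-0.31), mir-794 3 days (0.20) and 2 to 5 days in DMSO (0.22), and mir-795 2 days (0.19), while mir-793 gained rotenone against H2O at 1 day (0.20) and mir-1821 time in rotenone (adjusted p = 0.00393). DESeq2 (0.45) and its size factors (0.46) passed mir-1821 from 1 to 5 days in H2O. For mir-795 the mean effect was 0.063 with lane as a term and 0.095 in the exact permutation. The causes were not tested.

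No label pairs rotenone and DMSO libraries by replicate number. Of 15 same-numbered pairs 4 had deviations correlated above 0.1 (-0.23 to 0.15). Differently numbered pairs were not set beside them, so these values do not decide whether the numbers pair libraries. With the replicate block 98 member results kept their side of the threshold, and mir-793 against H2O at 1 day (0.24, adjusted p = 0.0366) and mir-1821 from 1 to 5 days in H2O (0.46) became calls.

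The 23 hairpins called at 6 hours became 13 with size factors, 8 without the filter, 2 with only those groups and 10 with total counts. The 2 at 5 days became 1 with size factors and 0 without the filter, with only those groups and with total counts. The 43 called on average became 20 with lane as a term and 15 in the exact permutation. Against H2O at 5 days the 2 became 4 with DESeq2, 8 with the replicate block and 0 without the filter, with only those groups and with total counts, and DMSO against H2O at 1 day gave 1 with DESeq2.

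Leaving out each library in turn moved the calls at 6 hours between 8 and 26, at 3 days between 10 and 27, at 5 days between 0 and 2, against H2O between 13 and 27 at 1 day and between 0 and 7 at 5 days, and for the effect at 2 days minus that at 1 day between 14 and 28. For mir-793 the effect at 2 days ranged from -0.36 to -0.076, that against H2O at 1 day from 0.17 to 0.28 and 2 to 5 days in DMSO from -0.42 to -0.14. For mir-794 the effect at 3 days ranged from 0.17 to 0.28 and the adjusted p of its change over times from 0.00459 to 0.263. For mir-795 the mean effect ranged from 0.083 to 0.12 and that at 2 days from 0.19 to 0.33. For mir-1821 rotenone against H2O at 1 day ranged from 0.32 to 0.66, 1 to 5 days in H2O from 0.34 to 0.66, and the adjusted p of time from 0.00459 to 0.0502 in DMSO and from 0.00400 to 0.247 in rotenone. The ratios of mir-794 to mir-1821 and to mir-795 ranged from 0.20 to 0.27 and from 0.076 to 0.11. mir-1821, with the fewest counts of the 4, also had the widest spread beyond counting error.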
